A study of Mus musculus with 8 samples.

Results

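The reception step of Hedgehog (Hh) signaling was followed through 6 genes across the 4 conditions of an RNA-Seq experiment in NIH3T3 cells, an established mouse embryonic fibroblast line. They are Ptch1 and Hhip, which bind the ligand and restrain the pathway, the co-receptors Boc, Cdon and Gas1, and Smo, the transducer that Ptch1 holds inactive. Each gene was found by position: in every library the assembled locus that overlapped the annotated mm9 gene or one of its transcripts best was taken, with a shared length of at least 0.5 of the joint length (Jaccard index). All 6 genes were found in all 8 libraries, among 20197 genes with a value in every library. Of the 6, 5 entered the statistical tests, which covered 10284 genes with an FPKM (sequenced fragments relative to transcript length and library size) of at least 1 in at least 2 libraries. Hhip did not reach that level.

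All 8 libraries came from NIH3T3 cells that carried a zeocin-resistant vector and had been selected with 150 ug/ml zeocin. By the methods, 2 independent transfections were done and the cells from each were pooled. The Control libraries (n = 2) came from cells with the empty vector pcDNA3.1(Zeo+), given 1:100 medium of HEK293 cells without a Shh transgene as vehicle. The Hh-CM libraries (n = 2) came from the same empty-vector cells after 48 h in 1:100 conditioned medium of HEK293 cells that secreted a Sonic hedgehog N-terminus from a transgene. The libraries labelled Esrrb (n = 2) came from cells transfected with a pcDNA3.1(Zeo+)-Esrrb vector and given vehicle, and those labelled Esrrb+Hh-CM (n = 2) from those cells after Hh-CM. Esrrb encodes estrogen related receptor β, an orphan nuclear receptor, and the study asked whether it alters the response of Hh target genes. The methods call the 2 libraries of a group biological replicates. It is not given whether the 2 transfections were joined into 1 pool or kept apart as the replicates. The p-values measure the spread between the 2 libraries of a group. Whether that spread includes a difference between transfections cannot be told.

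In vertebrate cells, Ptch1 keeps Smo inactive as long as no ligand is bound. Boc, Cdon and Gas1 present the ligand to Ptch1, and ligand binding releases Smo, which lets the Gli transcription factors act. Ptch1 and Hhip are themselves known Gli targets in many tissues and form negative feedback, while Gas1, Cdon and Boc are known to be repressed by Hh signaling in several embryonic tissues. Gas1 was first known as a gene expressed in growth-arrested fibroblasts.

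Some properties of the libraries touch all results. Relative depth, read from the step between low FPKM values, ranged from 0.743 to 1.54 times that of Control replicate 1. The methods give only an approximate read number common to all samples. Esrrb itself was listed at 0 in the Control libraries and in all 4 libraries labelled Esrrb or Esrrb+Hh-CM, and at 0.0281 and 0.0203 FPKM in the Hh-CM libraries, so the mRNA tables do not show the transcript that the vector label names. A listed 0 is by itself not proof of absence (taken up with Hhip), and the species and sequence of the vector insert are not given in the sources used here. The Western blot by which the study checked Esrrb protein, which follows the label, is not analysed here. The names Esrrb and Esrrb+Hh-CM therefore stand for the labels only, wherever a direction is given. Hh-CM replicate 2 and Esrrb replicate 1 shared 8080 assembled loci with the same identifier and coordinates (52.2% and 48.2% of their assembled loci), against 1 to 106 in the other 27 pairs of libraries; their FPKM values differed, and results that rest on them are given also without both. Of 10 fibroblast markers, 9 had a value, and all 9 reached at least 10 FPKM in every library, with a summed level of 5840 to 6810 FPKM. All 4 epithelial, 3 endothelial and 3 neural markers stayed below 1 FPKM, and the highest of 3 blood markers reached 2.45 FPKM.

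FPKM is scaled to transcript length, so levels of different genes can be set side by side, within the limits of the assembled loci given below. Averaged over the 8 libraries, Gas1 was the most abundant of the 6 mRNAs at 193.2 FPKM, above 96.8% of the tested genes. Smo followed at 56.3 FPKM (above 87.5%), Cdon at 33.0 FPKM (above 77.8%), Ptch1 at 22.1 FPKM (above 67.9%) and Boc at 3.92 FPKM (above 17.7%). The average of Ptch1 pools conditions that differ widely, and its place changed with them. By group mean it lay below Boc in Esrrb (2.92 against 3.999 FPKM), and above Cdon in Hh-CM (36.97 against 34.7 FPKM) and in Esrrb+Hh-CM (45.8 against 36.6 FPKM). Ptch1 and Gas1 moved most with Hh-CM, in opposite directions, and Smo and Cdon stayed within a narrow range.

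**Figure D1:**
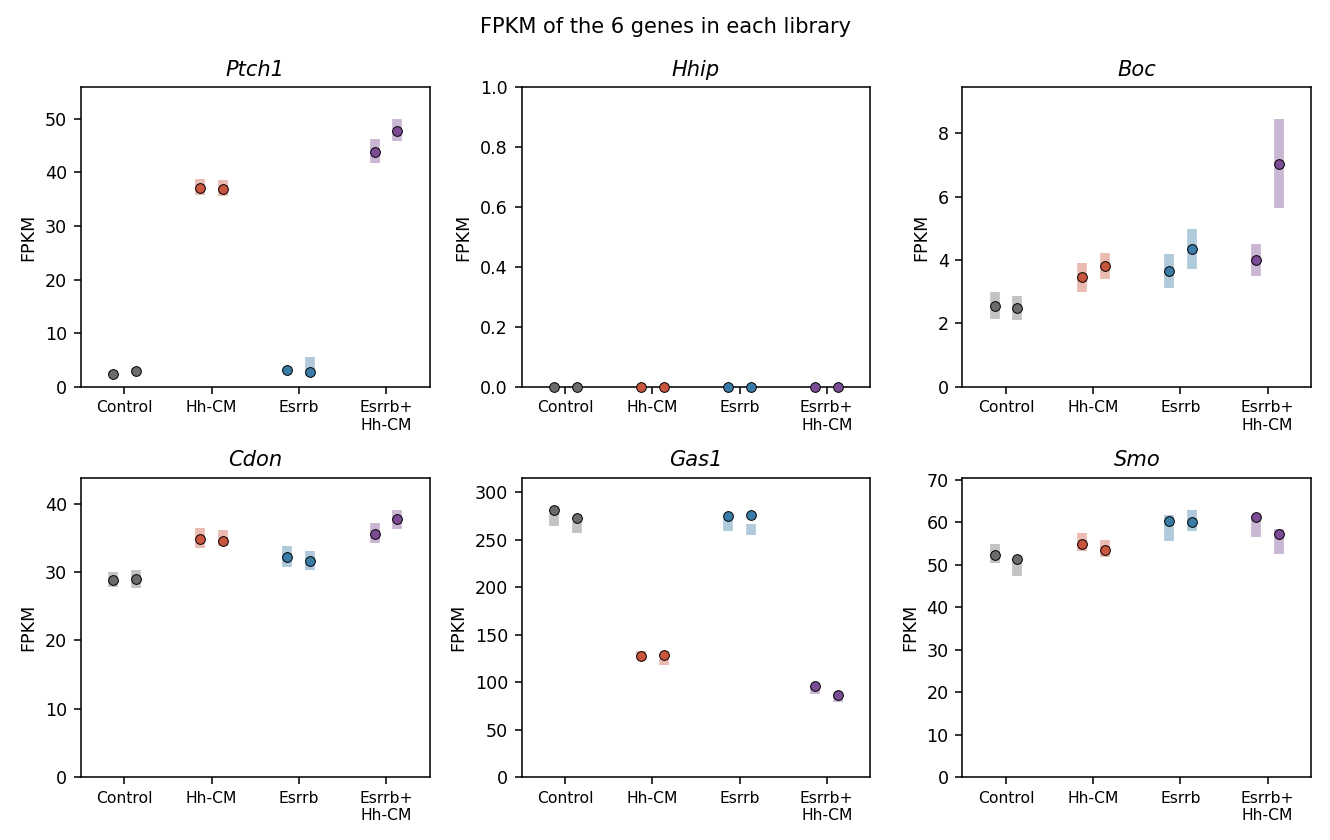
FPKM of Ptch1, Hhip, Boc, Cdon, Gas1 and Smo (vertical axes, linear from 0, each panel with its own range) in the 8 libraries; points are single libraries, 2 per condition, and shaded bars are the 95% limits that Cufflinks gave for each library. Ptch1 stood at 2.44 to 3.08 FPKM without Hh-CM and at 36.95 to 47.7 FPKM with it, Gas1 at 273.1 to 281.4 FPKM without and at 87.0 to 128.2 FPKM with it, and Hhip was listed at 0 throughout.

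Ptch1, the Hh receptor, was at 2.44 and 2.98 FPKM in the Control libraries and at 36.99 and 36.95 FPKM in the Hh-CM libraries. In the libraries labelled Esrrb it was at 3.08 and 2.76 FPKM, and in those labelled Esrrb+Hh-CM at 43.9 and 47.7 FPKM. Every library with Hh-CM lay above every library without it, and the lowest of the former was far above the highest of the latter. Ptch1 rose 13.2-fold from Control to Hh-CM (log2 difference 3.73, SE 0.108, adjusted p = 3.38e-05) and 15.2-fold from Esrrb to Esrrb+Hh-CM (3.93, SE 0.108, adjusted p = 2.42e-05). These folds are on the log2(FPKM + 0.1) scale, and the adjusted p is limma's moderated test with Benjamini-Hochberg adjustment over all 10284 genes. Among those genes it had the 33rd highest log2 difference in the empty-vector cells and the 26th highest in the Esrrb-labelled cells. In bulk RNA, more cells with the transcript and more transcript per cell cannot be told apart. An exact permutation test of 2 libraries against 2 cannot give a two-sided p below 0.33, so all calls rest on the fit across genes.

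The vector label alone went with little difference in Ptch1. The Esrrb libraries differed from Control by a log2 difference of 0.11 (95% interval -0.16 to 0.37, adjusted p = 0.545, limma). The Esrrb+Hh-CM libraries lay above both Hh-CM libraries by a log2 difference of 0.31 (95% interval 0.04 to 0.57), which did not pass the adjustment (adjusted p = 0.104). The size of the Hh-CM response itself differed between the lines by 0.20 on the log2 scale (95% interval -0.18 to 0.58, adjusted p = 0.552 for the interaction). Ordered by mean, Ptch1 was highest in Esrrb+Hh-CM (45.8 ± 2.68 FPKM, SD, n = 2), then in Hh-CM (36.97 ± 0.0264), Esrrb (2.92 ± 0.230) and Control (2.71 ± 0.381). In that order the step between Hh-CM and Esrrb passed the test (log2 difference 3.62, adjusted p = 1.96e-05), and the steps within each pair did not.

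Ptch1 lies on the minus strand of chromosome 13 (mm9, chr13:63610261-63674474). Its assembled locus had 7 different outlines in the 8 libraries, and the end of the gene was in part listed as a separate locus. That separate 3′ piece was at 3.675 and 3.57 FPKM in Control, 28.15 FPKM in Hh-CM replicate 2, 2.01 and 3.76 FPKM in the libraries labelled Esrrb and 44.4 FPKM in Esrrb+Hh-CM replicate 1, so it was high and low in the same libraries as the main locus. The other 2 libraries with Hh-CM had no separate piece. The main locus began at 63612128 and 63612828 in Control and at 63612841 in Esrrb replicate 2, so it lacked the 3′ end there. It began at 63609640 to 63609657 in the libraries with Hh-CM and at 63609641 in Esrrb replicate 1. The folds of Ptch1 therefore compare loci that in part differ in extent, and the effect of this was not tested.

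A further assembled locus lay just before the RefSeq start of Ptch1, inside the span of the annotated gene, which extends farther upstream. Whether it falls in an exon or an intron was not examined. It ran from about 100 to 520 bases before the start (chr13:63667143-63667562 in Hh-CM replicate 1). It was at 14.97 and 19.31 FPKM in the Hh-CM libraries and at 27.95 and 27.33 FPKM in those labelled Esrrb+Hh-CM. In Esrrb replicate 1, which shares gene models with Hh-CM replicate 2, it was at 0.776 FPKM, and the other 3 libraries without Hh-CM list no such locus. All 4 values with Hh-CM lay above the upper limit that Cufflinks gave for them, so the levels are uncertain, and the strand of the locus is not given. The 250 bases before the start are shown because this locus reaches into them (RefSeq, GRCm38.p6, found unchanged in mm9 at chr13:63667044-63667293, minus strand, 5′ to 3′). Capitals mark the 151 bases inside the locus of Hh-CM replicate 1.
Ptch1, 250 bases before the start: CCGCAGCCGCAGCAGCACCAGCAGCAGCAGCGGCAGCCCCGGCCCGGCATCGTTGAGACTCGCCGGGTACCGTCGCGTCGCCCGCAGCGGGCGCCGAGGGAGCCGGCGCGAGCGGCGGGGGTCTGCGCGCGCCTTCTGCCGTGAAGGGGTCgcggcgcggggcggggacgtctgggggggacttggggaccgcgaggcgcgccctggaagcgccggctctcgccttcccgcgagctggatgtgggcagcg

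**Figure D2:**
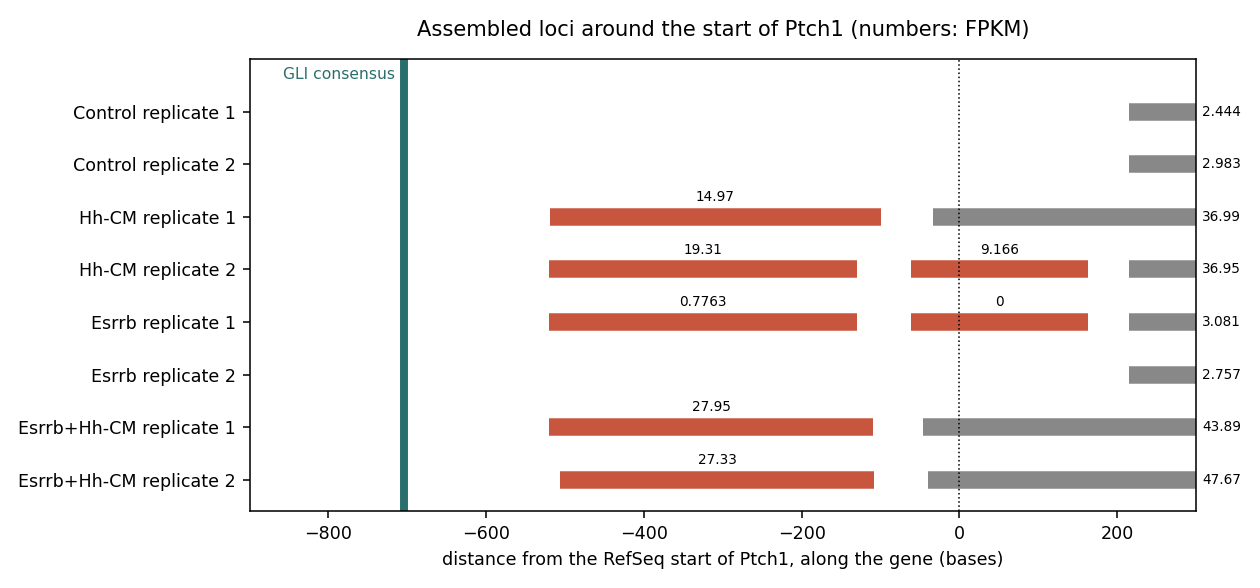
Assembled loci around the RefSeq start of Ptch1 (dotted line); the horizontal axis is the distance along the gene in bases, one lane per library, red bars are loci listed apart from the gene, grey bars the gene's own locus, which runs on beyond the right edge, numbers are FPKM, and the green line marks the GLI consensus match. The locus between about 100 and 520 bases before the start was at 14.97 to 27.95 FPKM in the 4 libraries with Hh-CM and at 0.776 FPKM in the single library without Hh-CM that lists it.

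The Gli factors bind a known consensus, GACCACCCA, and it was searched on both strands in the 1000 bases before the RefSeq start. Of the 6 genes, 5 (Ptch1, Hhip, Cdon, Gas1 and Smo) had an entry in the promoter table, and Boc had none. Ptch1 held 1 match, 708 to 700 bases before the start (chr13:63667743-63667751, reading TGGGTGGTC on the gene's strand), farther from the start than the upstream locus. The other 4 genes held none, and 0.832% of 32452 promoters matched to mm9 held at least 1. None of 26 other Hh pathway genes with a matched promoter held one, and Gli1 was not among those 26. The match is shown with its surroundings (mm9, chr13:63667697-63667797, minus strand, 5′ to 3′), with the consensus in capitals.
Ptch1, GLI consensus: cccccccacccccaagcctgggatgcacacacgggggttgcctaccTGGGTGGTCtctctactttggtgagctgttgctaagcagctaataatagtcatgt
The RefSeq entry of Cdon starts inside the annotated gene, at position 35259661 of chromosome 9. The measured Cdon locus started farther upstream, between 35229182 and 35229355, and the bases before that start were not searched. The estrogen related receptor element TCAAGGTCA was found in the 1000 bases of none of the 5 genes (2.55% of promoters hold it), and the shorter AAGGTCA, which overlaps it, also in none (17.7%). In the 300 bases around each start, none of the 5 held the GLI consensus (0.253% of 32851 windows), a variant of it with 1 substitution (6.55%), TCAAGGTCA (0.423%) or AAGGTCA (4.72%). A match describes letters and not binding, and the windows cover a small part of each gene's surroundings.

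Hhip, the Hh-interacting protein that captures ligand at the membrane (chr8:82490014-82581905, minus strand), was listed at 0 FPKM in all 8 libraries, also in the 4 with Hh-CM. It was not tested and no fold can be given. A listed 0 is not proof of absence in these tables, since 50 genes were at exactly 0 in some library while at 10 FPKM or more in at least 4 others. Of the 2 ligand-binding inhibitors among the 6 genes, Ptch1 thus was the one with a measurable level.

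Gas1, a membrane-anchored co-receptor (chr13:60275766-60278726, minus strand), was at 281.4 and 273.1 FPKM in the Control libraries and at 127.7 and 128.2 FPKM in the Hh-CM libraries. The libraries labelled Esrrb had 275.5 and 276.2 FPKM, inside the range of Control, and those labelled Esrrb+Hh-CM had 96.1 and 87.0 FPKM, the lowest of all. The values with and without Hh-CM did not overlap, nor did those of Hh-CM and Esrrb+Hh-CM. Gas1 fell 2.17-fold from Control to Hh-CM (log2 difference -1.11, SE 0.051, adjusted p = 0.000135, limma). From Esrrb to Esrrb+Hh-CM it fell 3.01-fold (-1.59, SE 0.051, adjusted p = 3.56e-05). In these comparisons it had the 162nd and the 88th lowest log2 difference of the 10284 genes. In 6 of the 8 libraries its FPKM lay outside the limits that Cufflinks gave for it, as did 9.78% to 14.1% of all loci of at least 1 FPKM per library.

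Gas1 was the gene among the 5 tested whose Hh-CM response differed between the lines. Its fall was larger by 0.48 on the log2 scale in the Esrrb-labelled cells (interaction -0.48, SE 0.072, 95% interval -0.65 to -0.30, adjusted p = 0.0480, limma), and 1.35% of all tested genes passed this interaction test. With Hh-CM present, the Esrrb+Hh-CM libraries lay 1.40-fold below Hh-CM (log2 difference -0.48, adjusted p = 0.00361), while with vehicle the Esrrb libraries differed from Control by -0.01 (95% interval -0.13 to 0.12, adjusted p = 0.944). The interaction lies close to the threshold. Its adjusted p ranged from 0.0185 to 0.271 over 18 alternative settings, of which 8 passed, and it did not pass without any single library of Control, Hh-CM or Esrrb (each in turn, adjusted p 0.114 to 0.136) with the replicate number as a block (0.0872), with no variance trend (0.0872) or with no FPKM limit (0.0926), and its size stayed between -0.55 and -0.41. Without both libraries that share gene models, the difference between Hh-CM and Esrrb+Hh-CM was still -0.48 with adjusted p = 0.0646, and the interaction had adjusted p = 0.271.

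No GLI consensus was found in the 250 bases before the start of Gas1, nor in those of Ptch1. The bases of Gas1 are shown because the gene fell where Ptch1 rose (RefSeq, GRCm38.p6, found unchanged in mm9 at chr13:60278897-60279146, minus strand, 5′ to 3′).
Gas1, 250 bases before the start: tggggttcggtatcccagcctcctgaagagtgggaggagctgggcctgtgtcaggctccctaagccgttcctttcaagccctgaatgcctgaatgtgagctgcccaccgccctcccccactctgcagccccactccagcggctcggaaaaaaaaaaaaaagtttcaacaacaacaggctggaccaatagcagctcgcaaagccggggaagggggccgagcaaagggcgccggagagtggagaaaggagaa
The G and C content of the 300-base window was 62.3% for Gas1 and 76.3% for Ptch1.

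Cdon, an immunoglobulin-superfamily co-receptor (chr9:35228713-35315236, plus strand), was at 28.91 and 28.97 FPKM in Control, 34.85 and 34.48 FPKM in Hh-CM, 32.2 and 31.6 FPKM in the libraries labelled Esrrb and 35.6 and 37.7 FPKM in those labelled Esrrb+Hh-CM. The Control libraries were the lowest, and no 2 groups overlapped, though the steps were small. Cdon rose 1.20-fold with Hh-CM in the empty-vector cells (log2 difference 0.26, SE 0.041, adjusted p = 0.0102, limma) and 1.15-fold in the Esrrb-labelled cells (0.20, adjusted p = 0.0203). Control and Esrrb+Hh-CM differed 1.26-fold (0.34, adjusted p = 0.00204). Neighbouring groups in the order of means (Esrrb+Hh-CM, Hh-CM, Esrrb, Control) did not pass the test, with adjusted p between 0.0727 and 0.239, although Esrrb passed against Control without Esrrb+Hh-CM replicate 1 (0.0493) or replicate 2 (0.0496). The rise with Hh-CM in empty-vector cells kept its size but did not pass without any one of the 2 Control or 2 Hh-CM libraries (adjusted p 0.0528 to 0.0620) or without both libraries that share gene models (0.0992). The rise in the Esrrb-labelled cells lay between 0.16 and 0.21 but did not pass without either Esrrb library or Esrrb+Hh-CM replicate 2 (adjusted p 0.0589 to 0.0940), without the pair that shares gene models (0.125), with only the compared groups (0.0931), and when FPKM was rescaled between libraries (0.0548).

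Boc, the relative of Cdon (chr16:44485158-44559010, minus strand), had the lowest average over the 8 libraries of the genes with a value above 0, though it lay above Ptch1 in Control replicate 1 and in both Esrrb libraries. It was at 2.56 and 2.47 FPKM in Control, 3.45 and 3.80 FPKM in Hh-CM, and 3.65 and 4.35 FPKM in the libraries labelled Esrrb. Those labelled Esrrb+Hh-CM had 3.995 and 7.04 FPKM, the widest gap between 2 libraries of a group. Both Control values lay below all others, and the other groups overlapped in part. The difference from Control passed the test for Esrrb+Hh-CM (log2 difference 1.05, SE 0.259, adjusted p = 0.0256, limma) and not for Hh-CM (0.51, 95% interval -0.13 to 1.15, adjusted p = 0.246) or Esrrb (0.64, 95% interval 0.01 to 1.28, adjusted p = 0.151). The value for Esrrb+Hh-CM rests on its 2 unequal libraries and was 0.65 without replicate 2 and 1.45 without replicate 1. It was past the threshold in both, but not without Control replicate 1 (adjusted p = 0.0877), without Control replicate 2 (0.0963), without both libraries that share gene models (0.0785), with only the compared groups (0.0788) or with no FPKM limit (0.0891). Without Esrrb+Hh-CM replicate 1 or replicate 2, the differences of Hh-CM (adjusted p = 0.0472 and 0.0490) and of Esrrb (0.0303 and 0.0311) from Control passed. Without its replicate 1, Esrrb+Hh-CM also passed against Hh-CM (0.94, adjusted p = 0.0252) and against Esrrb (0.81, adjusted p = 0.0234).

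Smo, the seven-pass membrane protein downstream of Ptch1 (chr6:29685694-29711365, plus strand), was at 52.2 and 51.3 FPKM in Control and at 55.0 and 53.4 FPKM in Hh-CM. The libraries labelled Esrrb had 60.3 and 60.0 FPKM and those labelled Esrrb+Hh-CM had 61.2 and 57.3 FPKM, so the Esrrb-labelled libraries with and without Hh-CM lay above the empty-vector libraries. Hh-CM went with log2 differences of 0.07 in the empty-vector cells (95% interval -0.04 to 0.17, adjusted p = 0.354, limma) and -0.02 in the Esrrb-labelled cells (95% interval -0.13 to 0.08, adjusted p = 0.736). A change in Smo with Hh-CM larger than 0.17 in size on the log2 scale lies outside both intervals. Smo was higher in Esrrb than in Control by 1.16-fold (0.22, SE 0.043, adjusted p = 0.0250) and in Esrrb+Hh-CM than in Control by 1.14-fold (0.19, adjusted p = 0.0180). The first did not pass without any one Control or Esrrb library (adjusted p 0.0918 to 0.108) or without both that share gene models (0.161). The second did not pass without either Control library or Esrrb+Hh-CM replicate 1 (0.0513 to 0.0852), without both that share gene models (0.0642), with only the compared groups (0.0643), or after rescaling, where the difference was 0.11 (0.0755).

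Counted together, 3 of the 5 tested genes passed from Control to Hh-CM (Ptch1 and Cdon higher, Gas1 lower), where 18.0% of all tested genes passed. The same 3 genes in the same directions passed from Esrrb to Esrrb+Hh-CM, against 23.4% of all. For Esrrb against Control, 1 of 5 passed (Smo), against 16.4%. All 5 passed for Esrrb+Hh-CM against Control, Gas1 lower and the other 4 higher, where 35.0% of all did. Gas1 alone passed for Esrrb+Hh-CM against Hh-CM, where 18.9% did. Between Hh-CM and Esrrb, which differ in both label and medium, Ptch1, Gas1 and Smo passed, against 26.1%. The call of Smo (log2 difference 0.15, adjusted p = 0.0491) held in 7 of 19 alternatives and was lost without any single library of Control, Hh-CM or Esrrb (0.0819 to 0.189). A difference of at least 2-fold besides the adjusted p was met by Ptch1 and Gas1 in both Hh-CM comparisons, where 2.76% and 4.81% of all genes met it, and between Hh-CM and Esrrb (3.99%). It was met by Ptch1, Gas1 and Boc for Esrrb+Hh-CM against Control (6.21%), and by none of the 5 for Esrrb against Control (1.47%) or for Esrrb+Hh-CM against Hh-CM (1.97%). The medians of the 5 log2 differences were 0.26 from Control to Hh-CM and 0.20 from Esrrb to Esrrb+Hh-CM, beside 0.035 and 0.038 over all tested genes. Several of these comparisons share libraries, so their counts are not independent.

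**Figure D3:**
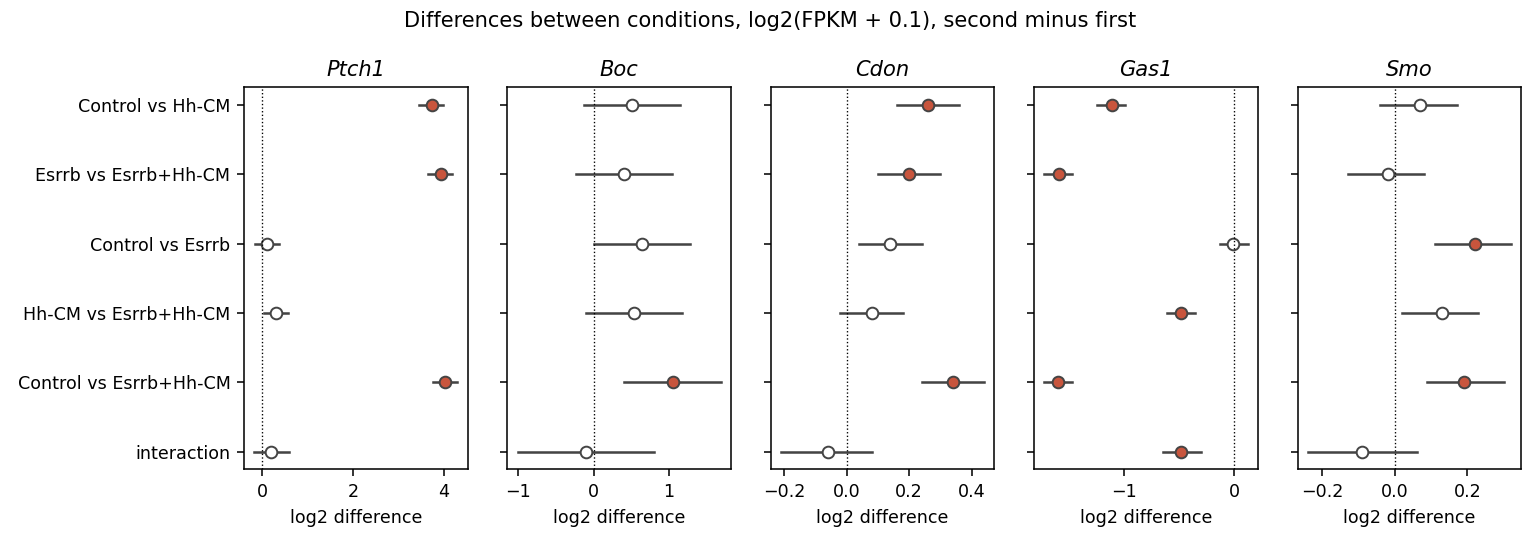
Log2 differences of log2(FPKM + 0.1) for Ptch1, Boc, Cdon, Gas1 and Smo (horizontal axes, each panel with its own range; the second group minus the first) in 5 comparisons and their interaction; bars are unadjusted 95% intervals from limma and red points have an adjusted p below 0.05. Ptch1 at 3.73 and 3.93 and Gas1 at -1.11 and -1.59 stand far from 0 in both Hh-CM comparisons, Smo lies at 0.07 and -0.02, and the interaction is red for Gas1 only.

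The balance among the receptor-side mRNAs shifted with these changes. Summed, the co-receptors Boc, Cdon and Gas1 had 312.9 and 304.5 FPKM in Control and 166.0 and 166.5 FPKM in Hh-CM. The libraries labelled Esrrb had sums of 311.4 and 312.2 FPKM and those labelled Esrrb+Hh-CM 135.6 and 131.8 FPKM. Most of the sum was Gas1, whose share was 89.9% and 89.7% in Control, 76.9% and 77.0% in Hh-CM, 88.5% and 88.5% in Esrrb and 70.8% and 66.1% in Esrrb+Hh-CM. The share of Cdon was 9.24% and 9.51% in Control and 21.0% and 20.7% in Hh-CM, and it was 10.3% and 10.1% in Esrrb and 26.2% and 28.6% in Esrrb+Hh-CM. Boc made up 0.811% to 0.818% in Control and at most 5.35%, in Esrrb+Hh-CM replicate 2. Without Gas1, the sum of Boc and Cdon did not fall with Hh-CM: it was 31.47 and 31.44 FPKM in Control and 38.30 and 38.28 FPKM in Hh-CM. These shares and ratios are descriptions with no test of their own. They carry the limits of their parts: Gas1 lay outside its Cufflinks limits in 6 of the 8 libraries, and the Ptch1 loci differed in extent.

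The ratio of Ptch1 to Smo FPKM was 0.0468 and 0.0582 in Control, 0.0511 and 0.0459 in Esrrb, 0.673 and 0.692 in Hh-CM and 0.718 and 0.832 in Esrrb+Hh-CM. Smo mRNA was thus above Ptch1 mRNA in all 8 libraries. For each unit of Ptch1 FPKM there were 128 and 102 units of summed co-receptor FPKM in Control and 101 and 113 in Esrrb. With Hh-CM the ratio was 4.49 and 4.51 in the empty-vector cells and 3.09 and 2.76 in the Esrrb-labelled cells.

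**Figure D4:**
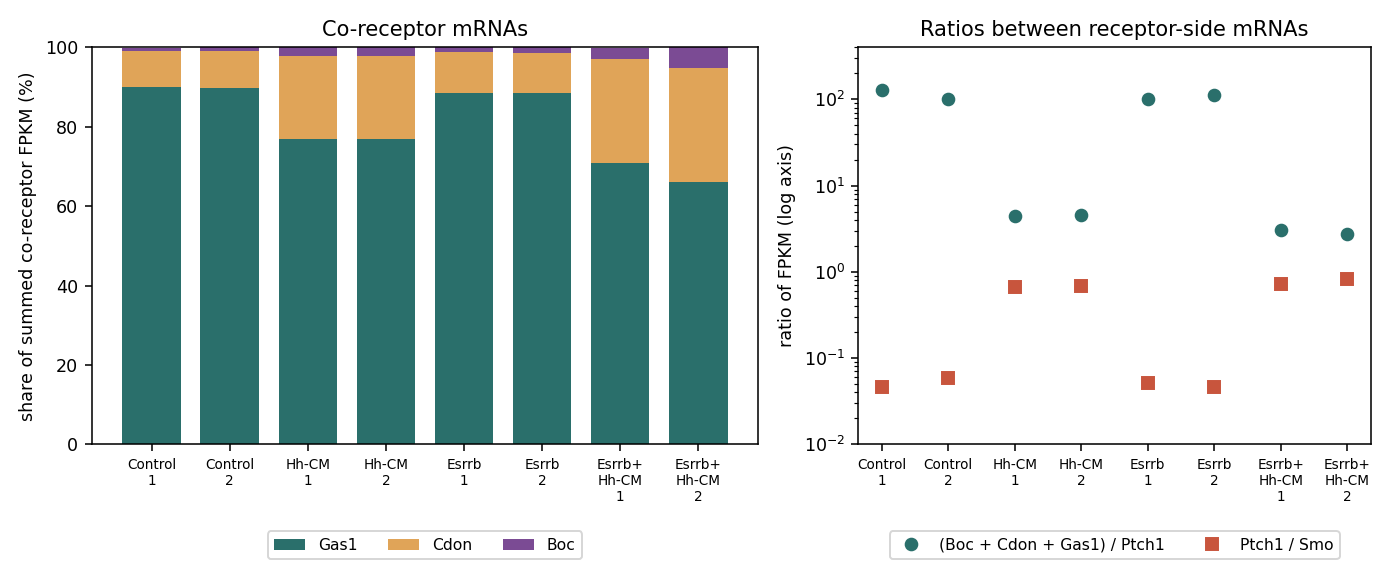
Left, shares of Gas1, Cdon and Boc in their summed FPKM (percent) in each library; right, ratios of FPKM on a log axis, circles for the 3 co-receptors over Ptch1 and squares for Ptch1 over Smo. Gas1 makes up 88.5% to 89.9% without Hh-CM and 66.1% to 77.0% with it, and the co-receptor ratio drops from 101 or more to 4.51 or less.

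The other genes of the pathway were taken from a list of 38, of which 35 had a value in all libraries and 28 were tested. The ligand genes Shh, Ihh and Dhh did not reach 1 FPKM in at least 2 libraries, and Shh was listed at 0 in all 8. From Control to Hh-CM 4 of the 28 passed (3 higher, 1 lower), where 18.0% of all tested genes did, with a median log2 difference of 0.11. From Esrrb to Esrrb+Hh-CM 6 passed (3 higher, 3 lower), against 23.4% of all, with a median of 0.05. In Esrrb against Control 5 passed, all higher, against 16.4%, with a median of 0.13. In Esrrb+Hh-CM, 2 passed against Hh-CM, both higher, where 18.9% of all did, and 10 against Control (9 higher, 1 lower), where 35.0% did, with medians of 0.04 and 0.11. These shares of the 28 lie near or below those of all tested genes, so the counts are no result about the pathway as a group. None passed the interaction test (limma), though Gpc6 passed it with rescaled FPKM (adjusted p = 0.0499). An unadjusted p below 0.05 in that test was reached by 4 of the 28 and by 1849 of all 10284 tested genes.

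Gli1, a transcription factor that is also a pathway target, was at 0.0217 and 0.0308 FPKM in Control, 26.8 and 28.1 FPKM in Hh-CM, 0.106 and 0.0372 FPKM in Esrrb and 34.5 and 34.8 FPKM in Esrrb+Hh-CM. Its log2 differences with Hh-CM were 7.77 and 7.69 (adjusted p = 2.84e-05 and 2.23e-05, limma). Their size depends on the pseudocount, since Gli1 without Hh-CM was near or below 0.1 FPKM: they were 4.79 and 5.06 with a pseudocount of 1 and 9.997 and 9.08 with one of 0.001. Gli2, the main Gli activator, rose by 1.33 in the empty-vector cells (adjusted p = 0.000331) and by 1.24 in the Esrrb-labelled cells (adjusted p = 0.000251). Gli2 was also higher in Esrrb than in Control (0.49, adjusted p = 0.0132) and in Esrrb+Hh-CM than in Hh-CM (0.40, adjusted p = 0.0223). The first of these did not pass without Control replicate 1 or without either Esrrb library (0.0560 to 0.0687). The second did not pass without Hh-CM replicate 1 or without either Esrrb+Hh-CM library (0.0558 to 0.107) or with only the compared groups (0.0697), and neither passed without both libraries that share gene models (0.102 and 0.0855).

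Hhat, the acyltransferase that palmitoylates Hh ligands, had 3.18 and 3.60 FPKM in Control and 5.55 and 6.55 FPKM in Hh-CM, and 4.42 and 4.08 FPKM in Esrrb and 7.36 and 8.33 FPKM in Esrrb+Hh-CM. It rose with Hh-CM by 0.82 (adjusted p = 0.00784) and 0.87 (adjusted p = 0.00449, limma) on the log2 scale, and the first was at 0.70 with adjusted p = 0.0811 without both libraries that share gene models. Gpc6, a cell-surface glypican, had 22.1 and 22.3 FPKM in Control and 12.9 and 13.1 FPKM in Hh-CM, and 27.3 and 25.9 FPKM in Esrrb and 11.4 and 11.9 FPKM in Esrrb+Hh-CM. It fell by 0.77 in the empty-vector cells (adjusted p = 0.000377) and by 1.19 in the Esrrb-labelled cells (adjusted p = 5.49e-05). Gpc6 and Gas1 thus fell in both Hh-CM comparisons. Of the 14 tested regulators and partners of Smo, none passed from Control to Hh-CM (limma), where 18.0% of all tested genes did. An unadjusted p below 0.05 was reached there by 3 of the 14 and by 3297 of all 10284 genes. From Esrrb to Esrrb+Hh-CM 2 of the 14 passed, both lower, where 23.4% of all did.

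**Figure D5:**
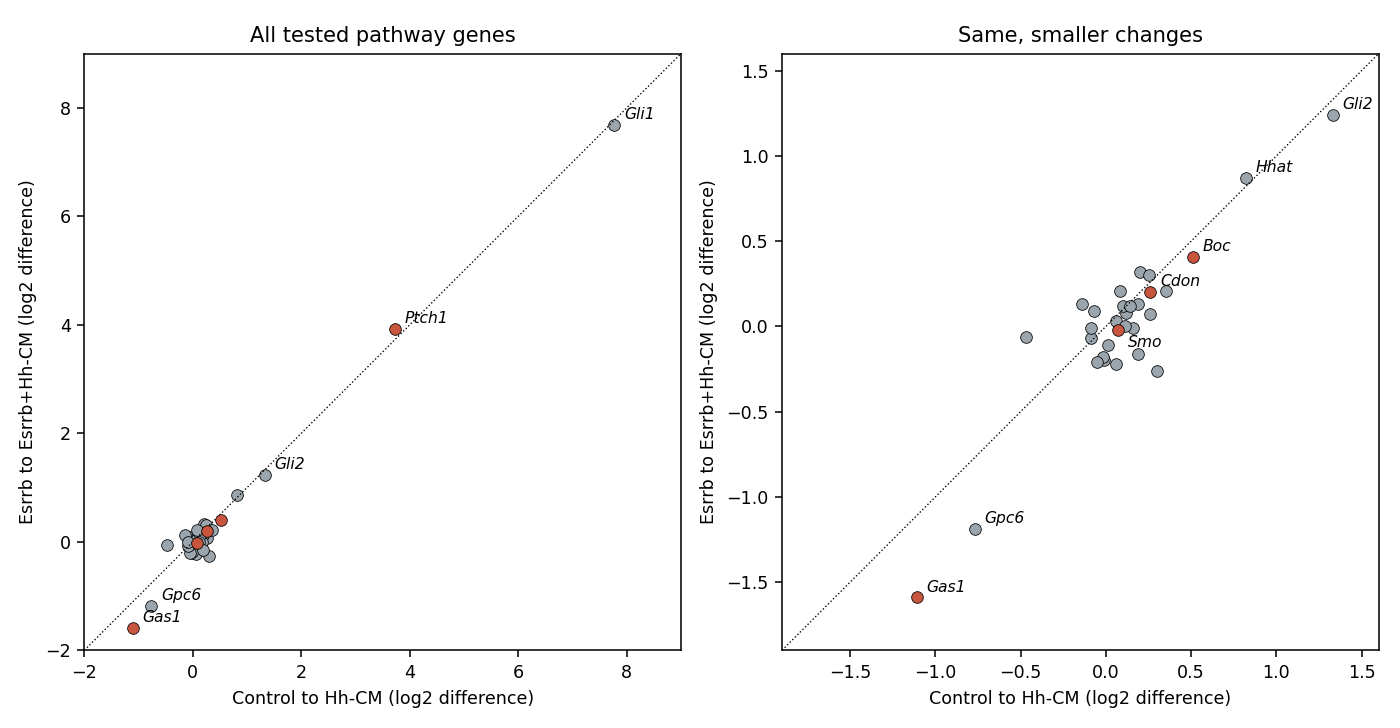
Log2 difference with Hh-CM in the empty-vector cells (horizontal) against that in the Esrrb-labelled cells (vertical) for the 5 tested receptor-side genes (red) and the 28 other tested Hh pathway genes (grey); the dotted line marks equal change, and the right panel enlarges the smaller changes. Ptch1 lies close to the line (3.73 and 3.93), Gas1 below it (-1.11 and -1.59), and Smo, Cdon and Boc lie nearer to 0 (between -0.02 and 0.51). The 2 axes share no library, but Hh-CM replicate 2 (horizontal) and Esrrb replicate 1 (vertical) share assembled gene models.

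The genes whose pattern over the 8 libraries was most like that of each receptor-side gene were named by Pearson r on log2(FPKM + 0.1). For Ptch1 they were Gli1 (r = 0.999), Nuak2 (0.998) and Fbxl2 (0.997), and Fbxl2 was listed at 0 in all 4 libraries without Hh-CM and at 3.81 to 4.34 FPKM with it. For Gas1 they were Angptl4 (0.998), Wls (0.997) and Sgk1 (0.996). Angptl4 had 199.2 and 195.6 FPKM in Control, 53.2 and 45.4 in Hh-CM, 196.5 and 204.5 in Esrrb and 31.0 and 28.3 in Esrrb+Hh-CM, and like Gas1 it was high in the 4 libraries without Hh-CM and lowest in Esrrb+Hh-CM. For Cdon they were Sertad3 (0.992), Arhgap32 (0.991) and Sh3pxd2a (0.983), for Boc Tctn3 (0.980), Ltbp4 (0.978) and Kdm6a (0.978), and for Smo Gosr2 (0.988), E130309D02Rik (0.986) and Glrx5 (0.986). Among the 5 genes themselves the highest r was that of Ptch1 and Cdon (0.903), and Gas1 had no positive r with any other (highest -0.214). The points are 8 libraries in 4 conditions that share their groups and depth, so these values describe likeness and carry no test.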

How the data were processed

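RNA-Seq libraries (TruSeq Stranded mRNA, HiSeq, 1 lane) of NIH3T3 cells were analysed, 2 per condition. The authors trimmed reads, aligned them to mm9 with TopHat2 and Bowtie2, and assembled each library with Cufflinks, which gave the deposited FPKM and its limits per locus. Versions and the strand setting are not given in the sources used here, and their comparison values were not used. Loci were assigned to GENCODE vM1 genes by position (Jaccard index of at least 0.5). Values were compared as log2(FPKM + 0.1) with limma 3.58.1 (R 4.3.3): 4 group means, eBayes with trend, all 8 libraries, Benjamini-Hochberg over 10284 genes of at least 1 FPKM in at least 2 libraries, and calls at an adjusted p below 0.05. The fit was tested on simulated data with independent noise, in which Hh-CM changed genes alike in both lines. Those data held no difference between the lines to be found. The genes and lists were chosen with earlier results of these data known. Named besides the 6 genes were Gli1 and Gli2, listed pathway genes past the threshold with a log2 difference of at least 1 in size, and for each tested gene the 3 genes of highest r. A listed gene is not reported here and was left out of the list counts. The FPKM tables hold no read totals, so no counting intervals are given. Alternatives were pseudocounts, FPKM limits, rescaling, a replicate block, no trend, only the compared groups, summed loci, an overlap of 0.8, and leaving out libraries. The alternative without both libraries that share gene models was chosen after seeing the data. Promoters came from RefSeq (GRCm38.p6). Protein sequences were not used here.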

Additional observations from a re-analysis of the deposited data

Results flagged for a closer look

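The Gas1 response to Hh-CM differed between the lines by the test of the difference itself (interaction -0.48 on the log2 scale, adjusted p = 0.0480, limma), with both libraries labelled Esrrb+Hh-CM below both Hh-CM libraries. The adjusted p ranged from 0.0185 to 0.271 over its alternatives.

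The locus assembled just before the start of Ptch1 lies outside the values compared, and it was present with Hh-CM at 14.97 and 19.31 FPKM in the Hh-CM libraries and at 27.95 and 27.33 FPKM in those labelled Esrrb+Hh-CM. The Control libraries list no locus there, and the only value without Hh-CM was 0.776 FPKM. Whether these reads belong to Ptch1 transcripts was not tested. Groups of 2 libraries allow no test for a single library that stands apart.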

How the results depend on the processing

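Ptch1 and Gas1 passed in all 19 alternatives wherever a group with Hh-CM was set against one without it, and so did Cdon for Esrrb+Hh-CM against Control. Of 660 re-computed log2 differences of the 5 genes, 597 kept their direction and side of the threshold, 50 were no longer past it, 8 were newly past it and 5 changed sign. The number of the 5 genes past the threshold changed as follows, and the cause was not tested. For Esrrb against Control, 1 became 0 to 3 when leaving out 1 library, 0 without both libraries that share gene models and 0 with the 2-fold demand. For Esrrb+Hh-CM against Control, 5 became 3 with only the compared groups, 3 to 5 when leaving out 1 library, 3 without the pair that shares gene models and 3 with the 2-fold demand. For Esrrb+Hh-CM against Hh-CM, 1 became 1 to 2 when leaving out 1 library, 0 without that pair and 0 with the 2-fold demand. In the interaction, 1 became 0 with no FPKM limit, 0 with no trend, 0 without that pair and 0 to 1 when leaving out 1 library. The replicate numbers did not pair the libraries (r of same-numbered deviations -0.0596 to 0.0623 over 6 pairs of groups), and with the replicate block 0 of the 5 genes passed the interaction test.

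Sign changes concerned differences that did not pass the test in any of these settings. For Esrrb against Control and over all single libraries left out, Ptch1 ranged from -0.032 to 0.245 and Gas1 from -0.029 to 0.014, both of opposite sign without Control replicate 1. The Boc interaction ranged from -0.505 to 0.298 (0.298 without Esrrb+Hh-CM replicate 1 and 0.020 without Esrrb replicate 2), and Smo for Esrrb+Hh-CM against Esrrb from -0.072 to 0.023 (the latter without Esrrb+Hh-CM replicate 2). The Gli1 interaction was 0.264 with a pseudocount of 1, -0.915 with one of 0.001, -0.372 to 0.215 when leaving out 1 library (0.215 without Esrrb replicate 1) and 0.249 without the pair that shares gene models, and the Gli2 interaction 0.001 without that pair. The Hhat interaction ranged from -0.066 to 0.169, below 0 without Control replicate 2, Hh-CM replicate 1, Esrrb replicate 2 or Esrrb+Hh-CM replicate 2.

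Of the other pathway genes, 5 past the threshold for Esrrb against Control became 2 with only the compared groups, 0 without the pair that shares gene models and 0 to 5 when leaving out 1 library. For Esrrb+Hh-CM against Control 10 became 6 to 10 when leaving out 1 library, with 6 without Control replicate 1. Against Hh-CM, 2 in Esrrb+Hh-CM became 4 with no trend, 1 with only the compared groups, 0 without that pair and 0 to 2 when leaving out 1 library. Between Hh-CM and Esrrb 8 became 5 with the replicate block, 5 with only the compared groups, 3 without that pair and 3 to 7 when leaving out 1 library. In the interaction 0 became 1 with rescaled FPKM.

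Over all tested genes, leaving out 1 library moved the number past the threshold by over 1.5 times in every comparison, from 1854 to as few as 989 for Control and Hh-CM, from 1686 to 659 for Control and Esrrb, from 3604 to 2400 for Control and Esrrb+Hh-CM, from 1948 to 715 for Hh-CM and Esrrb+Hh-CM, from 2407 to 1599 for Esrrb and Esrrb+Hh-CM, from 2686 to 1443 for Hh-CM and Esrrb and from 139 to 64 for the interaction. With only the compared groups, 957, 832 and 1512 genes passed for Control and Esrrb, for Hh-CM and Esrrb+Hh-CM and for Esrrb and Esrrb+Hh-CM. The interaction had 55 genes with the replicate block and 84 with no trend. Without the pair that shares gene models, 681, 289, 411, 1177, 874 and 59 genes passed for Control and Hh-CM, Control and Esrrb, Hh-CM and Esrrb+Hh-CM, Esrrb and Esrrb+Hh-CM, Hh-CM and Esrrb, and the interaction. Read totals per library are not in the tables, and 2 libraries a group limit what differences as small as those of Smo and Cdon can show.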
